A study of Mus musculus with 22 samples.

Results

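The genes described here are the matrix metalloproteinases (MMPs), the ADAMTS proteases with their ADAMTS-like relatives, and the tissue inhibitors of metalloproteinases (TIMPs). They were taken by symbol, as every gene in the count tables whose name begins with Mmp and a digit or with Adamts, or is Timp1 to Timp4. This gave 51 of 48709 genes: 23 Mmp, 19 Adamts, 5 Adamts-like and 4 Timp genes. The families were chosen with earlier results of these data known. RNA had been sequenced from heart ventricles of mouse embryos at E13.5, in 6 genotype groups of 3 libraries each. Experiment 1 compared LIN9 wt with LIN9 KO ventricles, which were taken as wild-type for Sav1 because their labels name no Sav1 genotype. Experiment 2 crossed both losses, giving LIN9 wt Sav1 wt, LIN9 KO Sav1 wt, LIN9 wt Sav1 KO and LIN9 KO Sav1 KO.

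LIN9 is a subunit of the MuvB complex, which binds promoters of cell cycle genes, and Sav1 encodes Salvador, a scaffold of the Hippo kinases that restrain the coactivator YAP. All groups carried Nkx2.5-Cre, on a C57/Bl6 background; LIN9 KO was Lin9 fl/fl, Sav1 KO was Sav1 fl/fl, and the LIN9 wt controls, although labelled wild-type, are described in the study as Lin9 fl/+. Nkx2.5-Cre acts in cardiac precursors, and cells of the ventricle outside its lineage keep their alleles. No label says whether a library came from 1 embryo or a pool. The study describes the 2 LIN9 experiments as the biological replicates and the 3 libraries within each as a triplicate, so the libraries of a group may not be independent, and p-values measure only the spread between them, which may be technical.

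MMPs are zinc endopeptidases, secreted or held at the cell surface, that cut collagens, gelatin and other matrix proteins. ADAMTS proteases are secreted, and cut proteoglycans such as versican, process procollagens or act on fibrillin-rich microfibrils, while ADAMTS-like proteins share their accessory domains but lack the protease. TIMPs block the active site, and Timp2 has a second role, since together with Mmp14 it brings the proenzyme of Mmp2 to the surface for activation. In the embryonic heart, ADAMTS cleavage of versican in the cardiac jelly accompanies trabeculation and the shaping of cushions and valves.

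Total counts were between 9485599 and 9615274 per library in experiment 1 and between 2770741 and 2999877 in experiment 2, so that low genes were measured less precisely in experiment 2. The targeted genes gave only a weak check of the labels, because counts cover the whole gene and the floxed alleles remove 1 exon. Lin9 was 25.6 ± 4.18 CPM (counts scaled to library size by TMM; SD, n = 3) in LIN9 wt and 20.6 ± 1.21 in LIN9 KO of experiment 1, and in experiment 2 it was 26.8 ± 3.23 and 15.5 ± 2.38 with Sav1 wt and 25.4 ± 6.11 and 22.7 ± 3.84 with Sav1 KO. Only the second of these 3 differences passed an adjusted p of 0.05 (0.00269, edgeR quasi-likelihood test, Benjamini-Hochberg adjustment). Sav1 itself was 57.5 ± 3.88 CPM in Sav1 wt and 40.7 ± 3.98 in Sav1 KO with LIN9 wt, and 49.7 ± 2.28 and 42.2 ± 1.73 with LIN9 KO. Its level was lower in every Sav1 KO library in both comparisons (-0.50 ± 0.12 and -0.23 ± 0.12), without passing (unadjusted p = 0.000305 and 0.0661, adjusted p = 0.317 and 0.465, edgeR). Library 3 of LIN9 KO Sav1 wt stood apart, with a chi-square per gene of 21.5 and 15.2 to libraries 1 and 2, which differed from each other by 6.28, and without it 17 rather than 18 members passed in its LIN9 comparison. At smaller distances, library 1 of LIN9 wt Sav1 wt was also apart, with 4.87 and 5.12 to libraries 2 and 3, which differed by 1.22. Without that library 12 members passed as higher and 1 as lower in the same LIN9 comparison, against 17 and 1 in full. In LIN9 KO of experiment 1 the distances were 16.2 between libraries 1 and 2, 26.2 between 1 and 3 and 17.4 between 2 and 3. The measure was not corrected for depth, which was greater in experiment 1.

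Of the 4 inhibitors, Timp2 alone could be read. Timp1, Timp3 and Timp4 were listed at 0 in all 18 libraries, as were Mmp1a, Mmp3 and Mmp7. The annotation (GENCODE M21, GRCm38) places Timp1 (chrX:20870166-20874735), Timp3 (chr10:86300372-86349506) and Timp4 (chr6:115241892-115252205) wholly inside the synapsin genes Syn1, Syn3 and Syn2 on the opposite strand. Among protein-coding genes lying inside another gene, 1156 of 1238 (93.4%) were listed at 0 in all 18 libraries, against 2913 of 20457 (14.2%) of the others. Actc1, the main actin of cardiac muscle, and Alas2, an enzyme of haem synthesis in red cells, lie inside other genes in the same way and were also listed at 0. The 0 of these 3 Timp genes therefore says nothing of their expression. Their reads were not found under the hosts either, as Syn1, Syn2 and Syn3 averaged 1.25, 2.22 and 3.36 CPM in LIN9 wt of experiment 1.

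Per length, Mmp15, a membrane-type MMP, was the most abundant in the controls among the members that could be counted, which leaves out Timp1, Timp3 and Timp4. It stood at 62.0 ± 4.69 CPM per kb of exon in LIN9 wt of experiment 1 (mean ± SD, n = 3), which was 22.2% of the sum over the members as counted. Mmp2, the gelatinase of mesenchymal cells, followed at 37.2 ± 6.53 and Timp2 at 31.8 ± 2.99 CPM per kb, whose ranges overlapped. Adamts1 (22.1 ± 2.52), Mmp14 (21.9 ± 3.26) and Adamts6 (19.3 ± 1.86) lay within their spread of one another, and Mmp23 (11.3 ± 0.301) and Adamts10 (10.6 ± 0.791) came next. The order was nearly the same in LIN9 wt Sav1 wt and LIN9 wt Sav1 KO of experiment 2, where Mmp15 stood at 59.2 ± 4.03 and 67.5 ± 2.3 CPM per kb and Mmp2 at 44.1 ± 2.61 and 41.3 ± 4.21. In all 3 LIN9 KO groups Mmp2 came first, with 94.7 ± 8.24, 109.0 ± 13.8 and 100.5 ± 19.1 CPM per kb, Timp2 came next, and Mmp15, with 29.9 ± 4.37, 36.1 ± 10.6 and 28.7 ± 3.74, overlapped with Mmp14. Within single libraries the ratio of Mmp2 to Mmp15 per kb, which no scaling between libraries can move, was 0.523 to 0.834 in the 9 LIN9 wt libraries and 2.49 to 3.71 in the 9 LIN9 KO libraries.

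**Figure D1:**
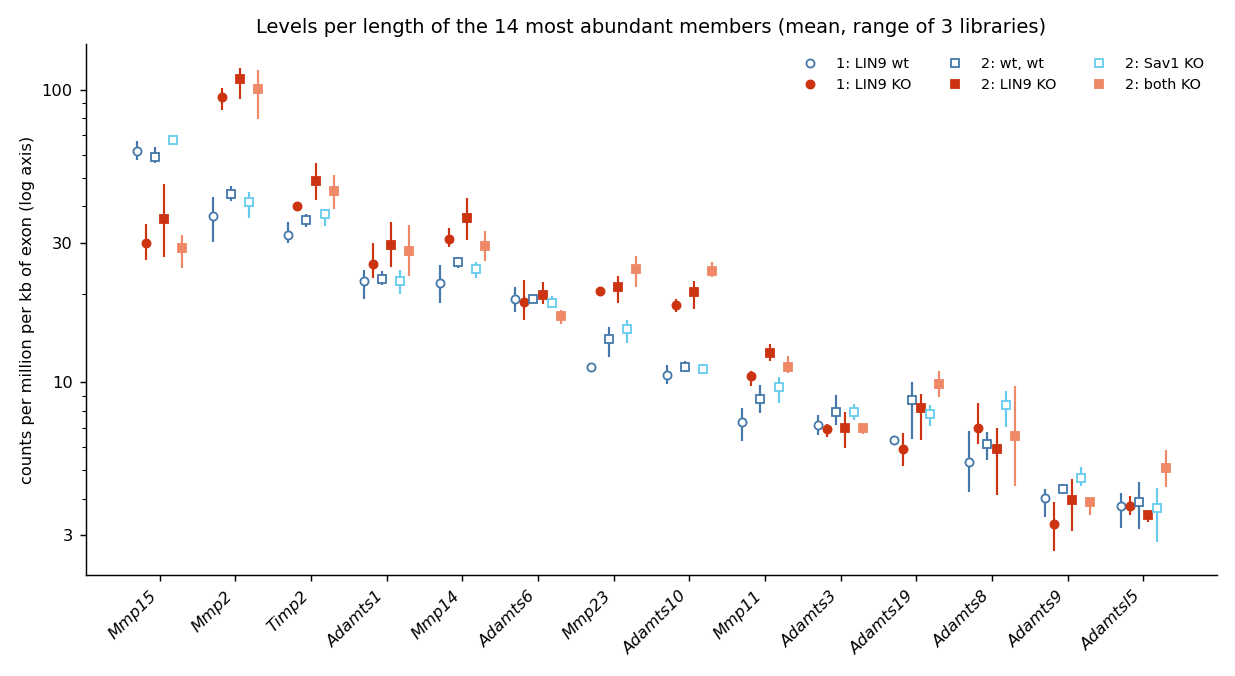
Level of the 14 members most abundant in LIN9 wt of experiment 1, in CPM per kb of exon on a log axis, with the mean of 3 libraries as a point and their range as a line; circles are experiment 1, squares experiment 2, and filled symbols LIN9 KO. Among members that could be counted, Mmp15 is the highest in the 3 LIN9 wt groups, at 59.2 to 67.5, and Mmp2 in the 3 LIN9 KO groups, at 94.7 to 109.0. Adamts8, Adamts9 and Mmp11 have 65.7%, 24.8% and 7.4% of their exonic length under other genes, so their levels may be read too low.

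Loss of LIN9 was tested in 3 comparisons that share no library: experiment 1, experiment 2 with Sav1 wt, and experiment 2 with Sav1 KO. A mean count above 1 was required, and this left 40 members in experiment 1 and 35 in experiment 2. In experiment 1, 18 of 40 (45%) passed an adjusted p of 0.05, against 20.9% of all genes tested; 16 were higher in LIN9 KO, against 11.1% of all genes, and 2 were lower, against 9.78%. With Sav1 wt in experiment 2, 18 of 35 passed (51.4%, against 23.2% of all genes), 17 higher (12.7% of all genes) and 1 lower (10.5%). With Sav1 KO, 14 of 35 passed (40.0%, against 23.4%), 13 higher (11.8%) and 1 lower (11.6%). The median log2 fold change of the members tested was 0.40, 0.52 and 0.48 in the 3 comparisons, while that of all genes was 0.02, 0.01 and 0.03. Without LIN9 KO Sav1 KO library 3 the members' median with Sav1 KO was 0.30. Of the 35 members tested in all 3 comparisons, 11 passed in the same direction in each, 10 higher and 1 lower, as did 12% of all genes tested in all 3.

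**Figure D2:**
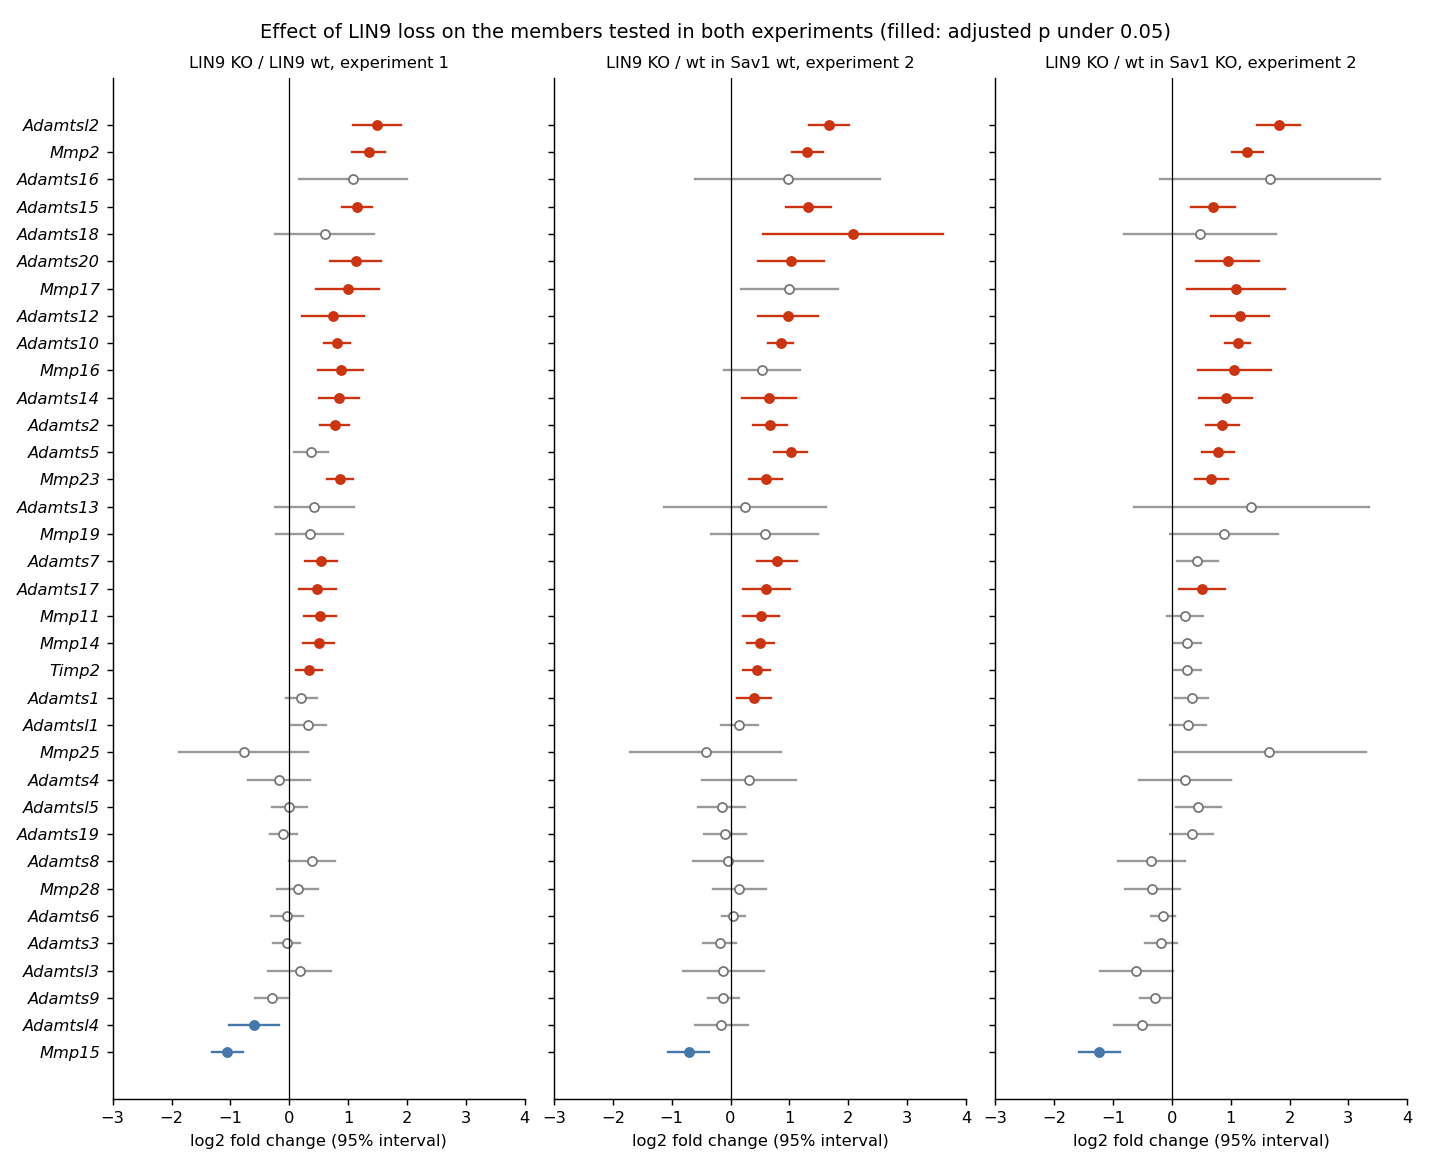
Log2 fold change of LIN9 KO over LIN9 wt with its 95% interval (edgeR) for the 35 members tested in both experiments, in experiment 1, in experiment 2 with Sav1 wt and in experiment 2 with Sav1 KO; filled points passed an adjusted p of 0.05, red higher and blue lower. Adamtsl2 and Mmp2 lie to the right of 1 in all 3 panels, and Mmp15 is the lowest member in experiment 2 with Sav1 KO, at -1.23.

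The gelatinase Mmp2 (chr8:92827291-92853420, plus strand), which digests denatured collagen and basement membrane collagen, rose in every comparison. In experiment 1 it read 101, 130 and 145 CPM in LIN9 wt and 289, 327 and 343 CPM in LIN9 KO. In experiment 2 it read 140, 148 and 158 CPM in LIN9 wt Sav1 wt against 314, 388 and 400 CPM in LIN9 KO Sav1 wt, and 123, 143 and 151 CPM in LIN9 wt Sav1 KO against 269, 352 and 396 CPM in LIN9 KO Sav1 KO. Every LIN9 KO library lay above every LIN9 wt library. The log2 fold changes were 1.35 ± 0.13 (SE), 1.31 ± 0.13 and 1.28 ± 0.13, with adjusted p of 7.47e-06, 4.85e-08 and 6.97e-08 (edgeR quasi-likelihood test, Benjamini-Hochberg). Mmp9, the other gelatinase, was counted at most 7 times in a library, and its log2 fold change of 2.00 ± 0.90 in experiment 1 did not pass (adjusted p = 0.139, edgeR quasi-likelihood test).

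Both partners of Mmp2 at the cell surface moved less. Mmp14, the transmembrane protease that activates the Mmp2 proenzyme, read 111, 130 and 150 CPM in LIN9 wt and 173, 177 and 201 CPM in LIN9 KO of experiment 1. Its log2 fold change was 0.50 ± 0.12 there (adjusted p = 0.00793), 0.50 ± 0.11 with Sav1 wt (0.00127) and 0.26 ± 0.11 with Sav1 KO (0.0935, not passing). Timp2 (chr11:118301069-118355740, minus strand) read 116, 118 and 137 CPM in LIN9 wt against 155, 157 and 157 CPM in LIN9 KO of experiment 1, with no overlap. Its log2 fold change was 0.34 ± 0.10 (adjusted p = 0.0289), 0.45 ± 0.11 (0.00401) and 0.26 ± 0.11 (0.0896, not passing). The Timp2 call of experiment 1 was lost when LIN9 wt library 1 or 3 or LIN9 KO library 1 was left out, with adjusted p up to 0.148, and that of Mmp14 without LIN9 wt library 3 (0.0564). Per kb, Mmp2 stood at 0.994 to 1.38 times Timp2 in the 9 LIN9 wt libraries and at 2.04 to 2.52 times Timp2 in the 9 LIN9 KO libraries, whereas Mmp14 stood at 0.616 to 0.759 times Timp2 in the former and 0.639 to 0.838 times in the latter, which overlap.

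Mmp15 (chr8:95352268-95375080, plus strand) was the only member that passed as lower in all 3 comparisons. It read 311, 332 and 361 CPM in LIN9 wt and 141, 155 and 187 CPM in LIN9 KO of experiment 1. With Sav1 wt it read 303, 311 and 344 CPM against 145, 182 and 257 CPM, and with Sav1 KO 355, 360 and 378 CPM against 133, 159 and 173 CPM. The groups did not overlap in any comparison, although library 1 of LIN9 KO Sav1 wt came close, at 257 CPM. The log2 fold changes were -1.05 ± 0.12, -0.71 ± 0.16 and -1.23 ± 0.16, with adjusted p of 2.88e-05, 0.00471 and 6.68e-05 (edgeR quasi-likelihood test). Among the other membrane-type MMPs, Mmp16 and the lipid-anchored Mmp17 were low. Mmp16 read 6.54 to 11 CPM in LIN9 wt and 14.9 to 16.3 CPM in LIN9 KO of experiment 1, and rose there (0.87 ± 0.18, adjusted p = 0.00259) and with Sav1 KO (1.06 ± 0.29, 0.016) but did not pass with Sav1 wt (0.54 ± 0.30, 0.238), where it passed with the replicate block (0.0333). The call with Sav1 KO was lost without LIN9 wt library 1 or 3 or LIN9 KO library 2 (up to 0.0694). Mmp17 gave 0.99 ± 0.25 (adjusted p = 0.0103), 0.99 ± 0.40 (0.0754) and 1.09 ± 0.41, the last just inside the threshold of 0.05 and lost in 6 of its 11 alternative settings, and the first was lost without LIN9 KO library 2 (0.0593). Mmp24 and Mmp25 were counted at most 5 and 13 times in a library and did not pass.

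**Figure D3:**
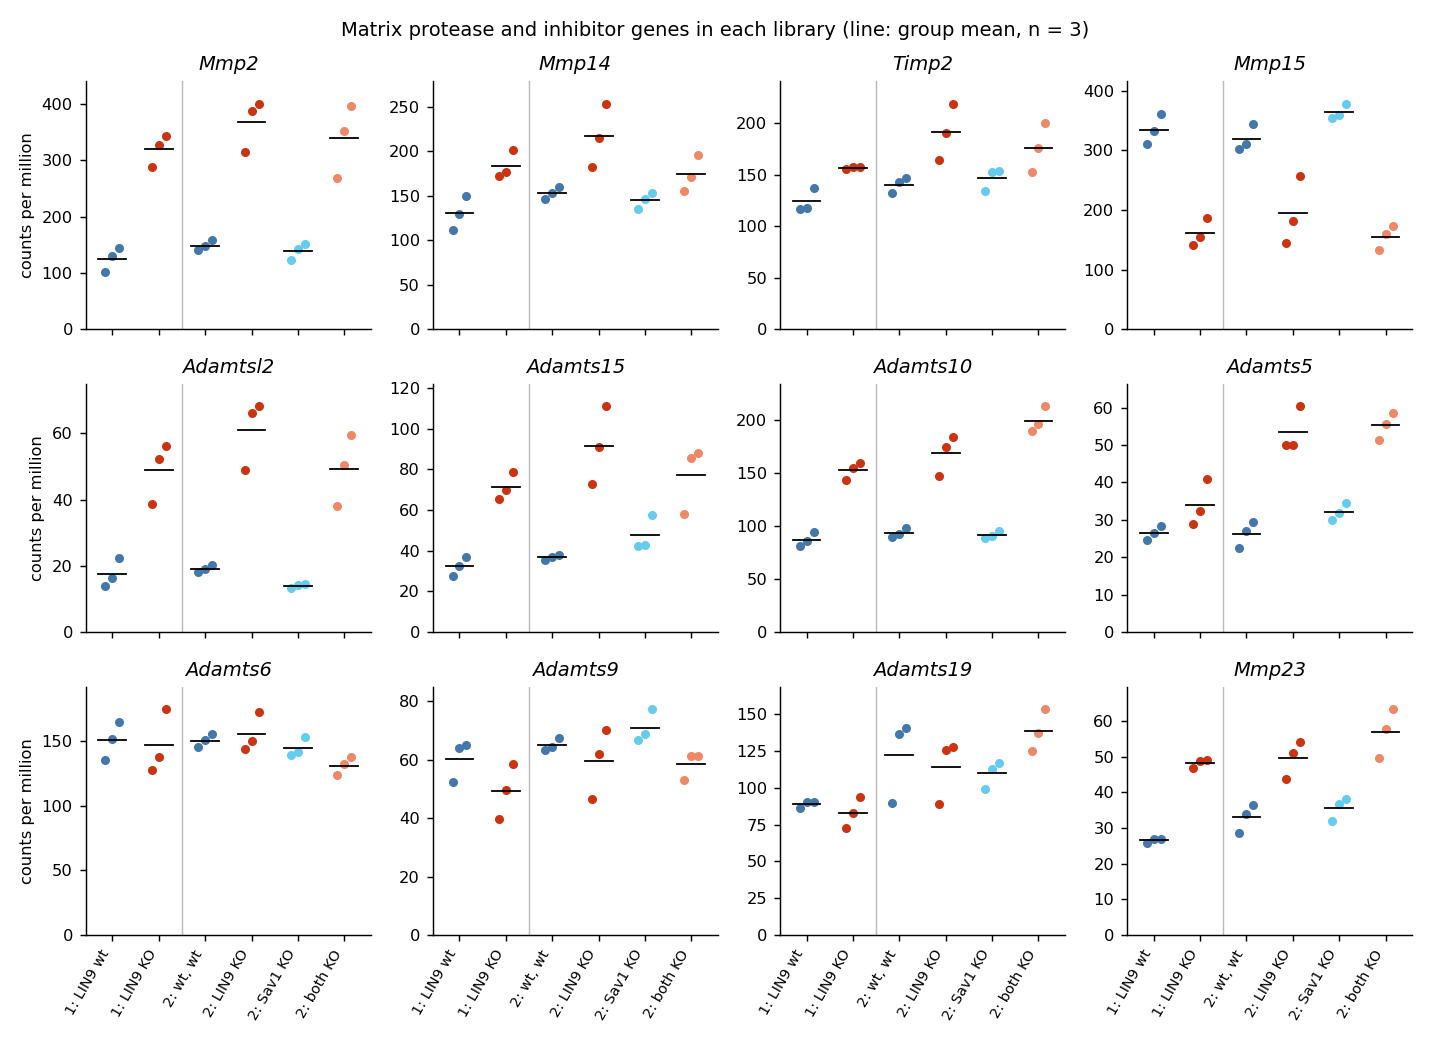
CPM of 12 members in each of the 18 libraries, with points sorted from low to high within a group and a line at the mean of 3; experiment 1 is left of the grey line and experiment 2 right of it. Mmp2, Adamtsl2 and Adamts10 are higher in every LIN9 KO library than in every LIN9 wt library of the same comparison and Mmp15 is lower, while the libraries of Adamts6 overlap in experiment 1.

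Of the remaining MMPs, the secreted, furin-activated Mmp11 and the membrane-anchored Mmp23 rose and Mmp28 did not pass. Mmp23 read 25.7, 26.9 and 26.9 CPM in LIN9 wt and 46.7, 48.7 and 48.9 CPM in LIN9 KO of experiment 1. Its log2 fold change was 0.86 ± 0.10 (adjusted p = 3.64e-05), 0.60 ± 0.14 (0.00204) and 0.67 ± 0.14 (0.000496, edgeR quasi-likelihood test), with no overlap in any comparison. Mmp11 rose by 0.52 ± 0.13 and 0.52 ± 0.15 on the log2 scale in experiment 1 and with Sav1 wt (adjusted p = 0.00881 and 0.00959), and gave 0.22 ± 0.15 with Sav1 KO, which did not pass. Its calls were lost without LIN9 wt library 3 in experiment 1 (adjusted p = 0.0582) and without library 2 of either group with Sav1 wt (up to 0.0825, edgeR). Mmp28 stayed between 7.87 and 12.6 CPM in all 18 libraries. With Sav1 KO it was lower in every LIN9 KO library (8.09 to 9.25 CPM) than in every LIN9 wt library (10.2 to 11.8 CPM). That difference, -0.33 ± 0.23, did not pass. Mmp19 and Mmp21 did not pass where tested, and Mmp19, at 1.87 to 7.82 CPM, lies wholly under an antisense gene, so that its counts are uncertain.

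The remaining 10 MMPs, the collagenases, stromelysins, matrilysin and other MMPs clustered on chromosome 9, were at or near 0 in every group. Mmp12 reached 6 counts in a library and Mmp13 reached 3, while Mmp1b, Mmp8, Mmp10, Mmp20 and Mmp27 reached at most 2. At the depth of experiment 2, 1 count corresponds to about 0.3 CPM, so a level at or below this could not be told from 0 there. The RefSeq promoter table (GRCm38.p6, 250 bases before to 50 after the start) held windows for 36 of the 51 members, 39 windows in all. The AP-1 heptamer TGAGTCA, searched on both strands, was in 7 of the 39 (17.9%), against 5.2% of all 32851 windows of that length. The 7 were Mmp1a, Mmp1b, Mmp3, Mmp7, Mmp10, Mmp12 and Mmp13. The MuvB element TTTGAA or TTCGAA was in 6 member windows (15.4%, against 19.2% of all), the TEAD hexamer GGAATG in 2 (5.13%, against 14.7%), and TATAAA in 12 (30.8%, against 13.6%). Of the 11 members that passed in the same direction in all 3 LIN9 comparisons, 8 had a window, 9 windows in all, and none of these held the AP-1, MuvB or TEAD letters, while Adamtsl2 alone held TATAAA. A match is a description of letters and not a bound site. Windows are shown 5′ to 3′, with any of these motif letters in capitals (in Mmp3, from left to right, the MuvB, AP-1 and TATA letters). They are those of the member with the largest fall among those that passed for LIN9 loss, of the ADAMTS-like gene with the largest rise and of a silent stromelysin (Mmp15 chr8:95352046-95352345, Adamtsl2 chr2:27079129-27079428 and Mmp3 chr9:7445572-7445871, all plus strand).
Mmp15: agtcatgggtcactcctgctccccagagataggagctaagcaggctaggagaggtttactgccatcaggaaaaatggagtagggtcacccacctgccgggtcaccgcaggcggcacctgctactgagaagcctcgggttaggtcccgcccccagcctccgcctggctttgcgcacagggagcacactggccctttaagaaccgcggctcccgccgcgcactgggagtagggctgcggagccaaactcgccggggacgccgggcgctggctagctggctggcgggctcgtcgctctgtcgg
Adamtsl2: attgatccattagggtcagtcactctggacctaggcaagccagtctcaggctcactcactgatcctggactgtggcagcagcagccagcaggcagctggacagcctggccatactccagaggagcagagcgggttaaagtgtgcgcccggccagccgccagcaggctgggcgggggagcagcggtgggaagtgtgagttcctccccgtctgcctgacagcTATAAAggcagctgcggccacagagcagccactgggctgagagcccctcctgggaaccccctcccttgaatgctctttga
Mmp3: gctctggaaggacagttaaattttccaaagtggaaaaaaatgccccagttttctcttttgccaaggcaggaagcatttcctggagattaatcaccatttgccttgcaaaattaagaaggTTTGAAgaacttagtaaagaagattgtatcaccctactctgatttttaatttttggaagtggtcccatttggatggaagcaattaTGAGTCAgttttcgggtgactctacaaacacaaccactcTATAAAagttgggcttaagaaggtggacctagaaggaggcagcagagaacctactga

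Among the 7 ADAMTS genes of the proteoglycanase group, which cut versican and aggrecan, Adamts15 and Adamts20 rose in all 3 comparisons and Adamts5 in both of experiment 2. Adamts15 read 27.7, 32.3 and 36.9 CPM in LIN9 wt and 65.4, 70.0 and 78.6 CPM in LIN9 KO of experiment 1. In experiment 2 it read 35.3, 37.0 and 37.9 CPM against 73.0, 90.8 and 111 CPM with Sav1 wt, and 42.3, 42.7 and 57.7 CPM against 57.9, 85.5 and 88.2 CPM with Sav1 KO. The groups did not overlap, but with Sav1 KO the highest LIN9 wt and the lowest LIN9 KO library nearly met. Its log2 fold changes were 1.14 ± 0.12, 1.32 ± 0.18 and 0.70 ± 0.18, with adjusted p of 1.35e-05, 3.99e-05 and 0.00815 (edgeR quasi-likelihood test), and the last did not pass without LIN9 KO Sav1 KO library 2 (0.0548). Adamts20, which also cuts versican, read 4.22 to 7.00 CPM in LIN9 wt and 10.5 to 15.2 CPM in LIN9 KO of experiment 1, with log2 fold changes of 1.12 ± 0.21, 1.03 ± 0.28 and 0.95 ± 0.26. The second did not pass without LIN9 wt library 1 (adjusted p = 0.0507), nor the third without LIN9 wt library 3 or LIN9 KO library 1 of that comparison (up to 0.0879, edgeR). Adamts5 read 24.6, 26.6 and 28.3 CPM against 28.9, 32.4 and 40.9 CPM in experiment 1 (0.36 ± 0.13, adjusted p = 0.0692), and 22.6, 27.0 and 29.4 CPM against 49.9, 49.9 and 60.3 CPM with Sav1 wt (1.02 ± 0.14, 2.5e-06). With Sav1 KO it read 29.9, 31.7 and 34.4 CPM against 51.4, 55.6 and 58.7 CPM (0.79 ± 0.13, 6.54e-05). The libraries of these pairs of groups did not overlap, although the smaller difference did not pass. That of experiment 1 did pass with the replicate block (0.35, adjusted p = 0.0323) and with no filter (0.36, 0.0322, edgeR). It also passed without LIN9 KO library 3 (0.47, adjusted p = 0.0101, edgeR).

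Of the other 4 proteoglycanases, Adamts1, the most abundant ADAMTS gene per length, passed only with Sav1 wt, at 0.39 ± 0.14 (adjusted p = 0.0437), and lost that call in 8 of its 11 alternative settings, among them the DESeq2 test and the replicate block. Adamts9 read 52.2, 64.1 and 64.9 CPM in LIN9 wt and 39.8, 49.5 and 58.6 CPM in LIN9 KO of experiment 1, which overlap, and its log2 fold changes of -0.29 ± 0.14, -0.12 ± 0.13 and -0.28 ± 0.13 did not pass. In experiment 1 it passed as lower with the replicate block (-0.30, adjusted p = 0.0269) and without LIN9 KO library 2 (-0.44, 0.0304, edgeR). With Sav1 KO every LIN9 KO library of Adamts9 lay below every LIN9 wt library. Adamts4 did not pass in any comparison. Adamts8 gave 0.38 ± 0.18, -0.04 ± 0.27 and -0.35 ± 0.26 and did not pass, but it passed as higher in experiment 1 without LIN9 wt library 2 (0.59, adjusted p = 0.0355) and with the replicate block (0.39, 0.0146), and as lower with Sav1 KO without LIN9 KO Sav1 KO library 3 (-0.76, 0.00704, edgeR), and 65.7% of the exonic length of Adamts8 lies under an antisense gene. Of the procollagen N-proteinases, which trim fibrillar procollagens, Adamts2 rose from 19.1, 21.3 and 23.9 CPM to 35.4, 36.1 and 38.2 CPM in experiment 1. Its log2 fold changes were 0.77 ± 0.12, 0.66 ± 0.14 and 0.86 ± 0.14 (adjusted p = 0.000307, 0.000816 and 3.43e-05, edgeR quasi-likelihood test). Adamts14 also rose in all 3 (0.84 ± 0.16, 0.65 ± 0.22 and 0.91 ± 0.22), the second lost in 6 of 11 alternative settings, and Adamts3, at 32.4 to 49.2 CPM in all libraries, did not pass (-0.04 ± 0.11, -0.18 ± 0.14 and -0.18 ± 0.14).

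In the group of Adamts6, Adamts10, Adamts17 and Adamts19, of which Adamts10 and Adamts17 act on fibrillin microfibrils, the members differed. Adamts10 read 81.6, 85.6 and 94.3 CPM in LIN9 wt and 144, 154 and 159 CPM in LIN9 KO of experiment 1. With Sav1 wt it read 89.4, 92.6 and 97.9 CPM against 147, 175 and 184 CPM, and with Sav1 KO 89.0, 90.4 and 95.2 CPM against 189, 196 and 213 CPM. No groups overlapped, and the log2 fold changes were 0.81 ± 0.10, 0.85 ± 0.10 and 1.12 ± 0.10 (adjusted p = 6.04e-05, 4.56e-07 and 4.31e-09, edgeR quasi-likelihood test). Adamts17 rose less, by 0.47 ± 0.15, 0.61 ± 0.19 and 0.51 ± 0.19, with its calls lost in 4 of 10, 5 of 11 and 6 of 11 alternative settings, and with Sav1 KO its libraries overlapped. Adamts6, needed for normal heart formation in mice, read 128 to 175 CPM in experiment 1, with a log2 fold change of -0.04 ± 0.13, and gave 0.05 ± 0.10 and -0.14 ± 0.10 in experiment 2. Adamts19, known for its role in heart valves, read 86.5, 90.3 and 90.6 CPM against 72.6, 82.6 and 93.9 CPM in experiment 1, and gave -0.10 ± 0.11, -0.10 ± 0.17 and 0.34 ± 0.17. Neither passed in any comparison, although every LIN9 KO Sav1 KO library of Adamts19 lay above every LIN9 wt Sav1 KO library, and that difference passed with the replicate block (adjusted p = 0.0162), with no filter (0.018) and with only the 6 libraries compared (0.0108, edgeR). With Sav1 KO every LIN9 KO library of Adamts6 lay below every LIN9 wt library, at 124 to 138 against 140 to 154 CPM. In that comparison 7 of 35 members were wholly lower and 16 wholly higher. The share of all genes separated in this way was not counted, so these numbers do not set the members apart from other genes.

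Adamts7 and Adamts12, related proteases that cut cartilage oligomeric matrix protein, rose in experiment 1 and with Sav1 wt. Adamts7 gave 0.53 ± 0.13, 0.79 ± 0.17 and 0.43 ± 0.17, the last not passing (adjusted p = 0.0604, edgeR quasi-likelihood test), and Adamts12, at 4.53 to 6.85 CPM in LIN9 wt of experiment 1, gave 0.75 ± 0.25, 0.98 ± 0.25 and 1.16 ± 0.24. The first was lost without LIN9 wt library 1 or 3 or LIN9 KO library 2 (adjusted p up to 0.225), and the second without LIN9 KO library 2 (0.0664, edgeR). Adamts13, Adamts16 and Adamts18 were near the detection limit. Adamts18 passed only with Sav1 wt (2.08 ± 0.75, adjusted p = 0.0433), on libraries of 0 to 0.691 CPM against 1.64 to 2.29 CPM, and lost that call in 7 of 11 alternative settings.

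Among the ADAMTS-like genes, Adamtsl2 had the largest rise of any member that passed in all 3 comparisons. Adamtsl2 (chr2:27079379-27108981) encodes a matrix protein that binds fibrillin and a latent TGF-beta binding protein. It read 13.8, 16.4 and 22.4 CPM in LIN9 wt and 38.7, 52.2 and 56.3 CPM in LIN9 KO of experiment 1. In experiment 2 it read 18.3, 19.0 and 20.2 CPM against 48.9, 66.2 and 68.2 CPM with Sav1 wt, and 13.3, 14.1 and 14.5 CPM against 38.1, 50.5 and 59.5 CPM with Sav1 KO. The LIN9 KO libraries all lay above the LIN9 wt libraries, and the log2 fold changes were 1.48 ± 0.18, 1.67 ± 0.16 and 1.82 ± 0.18 (adjusted p = 0.00021, 1.31e-08 and 1.14e-08, edgeR quasi-likelihood test). Adamtsl4, another fibrillin-binding protein, passed as lower in experiment 1 (-0.60 ± 0.20, adjusted p = 0.0423), and lost that call in 5 of 10 alternative settings. It gave -0.16 ± 0.22 with Sav1 wt and -0.51 ± 0.23 with Sav1 KO (adjusted p = 0.118, edgeR), the latter with no overlap between the groups. Adamtsl1, Adamtsl3 and Adamtsl5 did not pass. With Sav1 KO, Adamtsl3 was lower in every LIN9 KO library (-0.60 ± 0.30) and Adamtsl5 higher in every one (0.45 ± 0.19).

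Whether the effect of LIN9 loss depended on Sav1, and what Sav1 loss did by itself, was asked in experiment 2. No member passed for Sav1 loss in LIN9 wt (0.017% of all genes did) or in LIN9 KO (0.0113%), and no gene of the whole table passed for the interaction (0%) in edgeR, against 17 genes with no filter on low counts and 64 without LIN9 KO Sav1 wt library 3, none of them a member. Over all genes the calls for Sav1 loss in LIN9 wt were 3, against 2 with DESeq2, 2 with the replicate block, 22 with no filter and 31 with only the 6 libraries compared. Those in LIN9 KO were 2, against 46, 84, 309 and 0 in the same order, and no member was among them in any of these settings. DESeq2 called 0 members in each of the 3 as well, and at an unadjusted p under 0.05 there were 3, 5 and 3 of 35 members in edgeR, beside 694, 2091 and 1153 of all 17675 genes. For Mmp2 the log2 fold change of Sav1 loss was -0.09 (95% interval -0.36 to 0.17) in LIN9 wt and -0.12 (-0.37 to 0.13) in LIN9 KO, and its interaction was -0.02 (-0.39 to 0.34). For Timp2 and the other members the intervals are drawn in the plot of Sav1 effects. Adamtsl2 was lower in every LIN9 wt Sav1 KO library than in every LIN9 wt Sav1 wt library, at -0.45 (-0.86 to -0.05), without passing (unadjusted p = 0.0291, adjusted p = 0.999, edgeR). The other 2 members under an unadjusted p of 0.05 there were Mmp25, lower in every library at -1.82 (-3.41 to -0.23), and Adamtsl3, higher in every library at 0.67 (0.05 to 1.29), with unadjusted p = 0.0262 and 0.0342 and adjusted p = 0.999 for both in edgeR. The 5 members for Sav1 loss in LIN9 KO were Mmp14 (-0.32, unadjusted p = 0.00765), Adamtsl5 (0.53, 0.00809), Adamts6 (-0.25, 0.0187), Adamts10 (0.24, 0.0226) and Adamtsl2 (-0.31, 0.0455), with adjusted p from 0.232 to 0.411 in edgeR. Of these, Adamtsl5, Adamts6 and Adamts10 did not overlap between the groups. The interaction with the smallest unadjusted p was that of Adamts15, whose rise in LIN9 KO was smaller with Sav1 KO, by -0.62 on the log2 scale (-1.16 to -0.09, unadjusted p = 0.0243, adjusted p = 0.715, edgeR). That of Mmp15 was -0.52 (-1.01 to -0.03, unadjusted p = 0.0383, adjusted p = 0.758, edgeR). That of Adamtsl5 had the other sign, at 0.60 (0.05 to 1.15, unadjusted p = 0.0324, adjusted p = 0.738, edgeR). Without LIN9 KO Sav1 wt library 3, which stands apart from the other 2 libraries of its group, Mmp14 and Mmp15 passed as lower after Sav1 loss in LIN9 KO, at -0.44 (adjusted p = 0.0346) and -0.51 (0.0303, edgeR quasi-likelihood test), while the calls over all genes went from 2 to 377 of 17650.

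**Figure D4:**
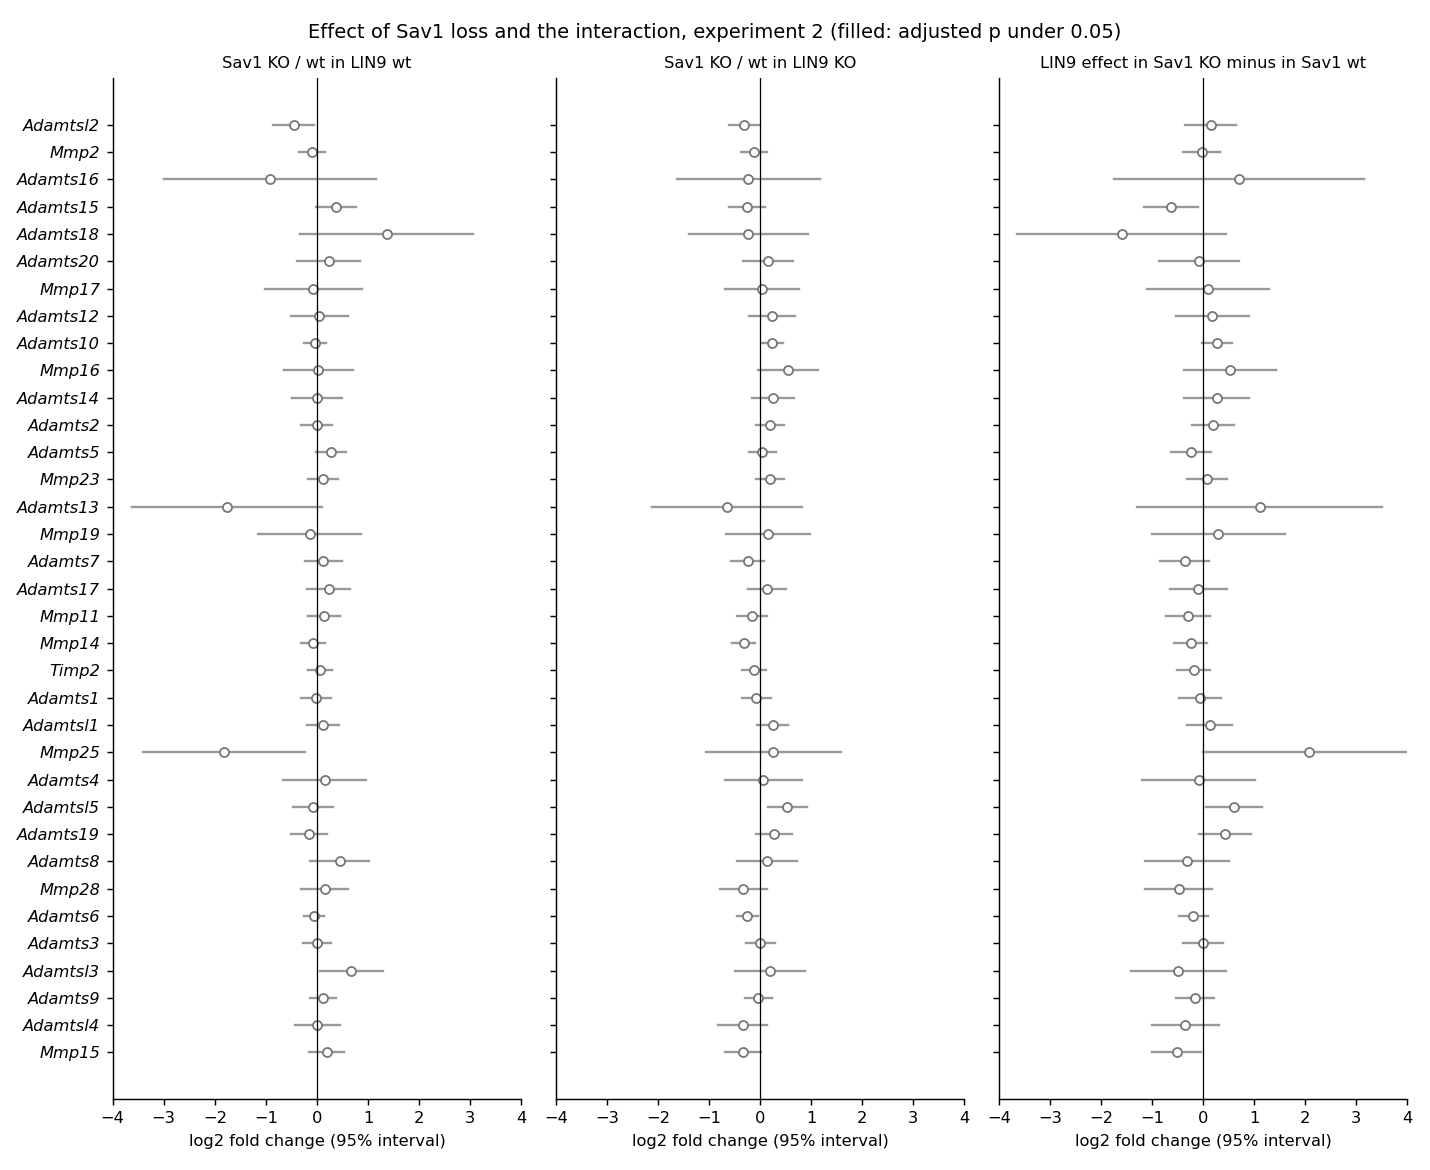
Log2 fold change of Sav1 KO over Sav1 wt in LIN9 wt and in LIN9 KO ventricles, and the difference between the LIN9 effects in Sav1 KO and Sav1 wt, with 95% intervals (edgeR, experiment 2) for 35 members in the order of the LIN9 plot; filled points would mark an adjusted p under 0.05, and there are 0. The intervals of Mmp2 cross 0 in all 3 panels and end at 0.17, 0.13 and 0.34 on the upper side.

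The LIN9 effects of both experiments were compared in a joint fit, in which 39 members were tested. No gene passed for the difference between experiments (0%) in edgeR, against 6 genes with the replicate block, none of them a member, and DESeq2 called 0 members. At an unadjusted p under 0.05 there was 1 member, beside 968 of all 19021 genes. This was Adamts5, whose rise was larger in experiment 2 by 0.66 (95% interval 0.24 to 1.08, unadjusted p = 0.00327, adjusted p = 0.973, edgeR). For Mmp2 this difference was -0.04 (-0.41 to 0.33).

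Genes that work with these proteases were counted in 3 lists, to be read beside the 11.1%, 12.7% and 11.8% of all genes that were higher in the 3 comparisons. Of 24 matrix substrates and ligands tested in experiment 1, 16 were higher in LIN9 KO and 0 lower, and in experiment 2 the counts were 15 of 22 higher with Sav1 wt and 14 of 22 with Sav1 KO, with 0 lower. Versican (Vcan), the main substrate of the proteoglycanases, rose by 0.76 ± 0.16 (adjusted p = 0.00284) in experiment 1 and by 0.92 ± 0.26 (0.0314) with Sav1 KO, and gave 0.39 ± 0.25 (0.335, edgeR quasi-likelihood test) with Sav1 wt. Of 22 activators, receptors and inhibitors tested, 14, 13 and 13 were higher and 1 lower in each comparison. A2m, a broad protease trap in plasma and tissue, rose from 1.94 ± 0.281 to 15.8 ± 3.66 CPM in experiment 1 (3.02 ± 0.23 on the log2 scale). Reck, a membrane-anchored inhibitor of MMPs, rose by 0.50 ± 0.12, 0.89 ± 0.13 and 0.78 ± 0.13 (adjusted p = 0.00562, 1.13e-05 and 6.8e-05), so that among readable inhibitors Timp2 was not alone in rising. Spock2, a matrix proteoglycan, fell from 7.99 ± 1.21 to 3.81 ± 0.954 CPM (-1.06 ± 0.22, adjusted p = 0.00281). Of 23 other metalloproteases and cathepsins tested, 9, 12 and 12 were higher and 0 lower, and Pappa, which cuts insulin-like growth factor binding proteins, rose most in experiment 1, from 8.25 ± 0.74 to 24.8 ± 1.82 CPM (1.58 ± 0.14). Vcan and Reck were named after their values had been seen.

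Markers of several cell types moved in the same comparisons, and in bulk tissue fewer cells of a type and less RNA per cell cannot be told apart. The summed level of 8 cardiomyocyte markers, of which Actc1 was listed at 0, was 18288 to 19550 CPM in LIN9 wt and 8638 to 12615 CPM in LIN9 KO of experiment 1, and 4 of the 7 tested were lower in each comparison. The 8 markers of cushion mesenchyme and fibroblasts summed to 2076 to 2418 CPM against 4516 to 4950 CPM, and 8, 7 and 8 of 8 were higher, with a median log2 fold change of 1.14, 1.02 and 0.92. The 7 epicardial markers summed to 282 to 309 CPM against 483 to 577 CPM, and 6 of 7 were higher in each. The 8 macrophage markers summed to 81.2 to 84.7 CPM against 135 to 173 CPM, with 7, 5 and 7 higher. The 8 neutrophil markers summed to 0.843 to 1.96 CPM in LIN9 wt against 5.77 to 8.89 CPM in LIN9 KO of experiment 1, and to at most 11 CPM in any library, with Ly6g at 0 in 5 of the 6 groups. Of those tested, 4 of 7, 3 of 6 and 3 of 6 were higher, with median log2 fold changes of 2.28, 2.79 and 2.50, beside 2.00 ± 0.90 for Mmp9 in experiment 1, which did not pass. Their part in the result was not tested. Of 8 endothelial and endocardial markers 3, 3 and 5 were higher, with 0, 1 and 1 lower. Of 5 megakaryocyte and platelet markers 3, 2 and 0 were higher. The 7 erythroid markers, with Alas2 listed at 0, summed to 262 to 484 CPM in LIN9 wt and 2129 to 4767 CPM in LIN9 KO of experiment 1, and 6 of 6 tested were higher in each comparison. In experiment 2 the cardiomyocyte sum was 19638 to 20423 CPM against 10068 to 11913 CPM with Sav1 wt and 20707 to 21613 CPM against 9527 to 12311 CPM with Sav1 KO. The mesenchymal sum was 2817 to 3041 CPM against 5082 to 6482 CPM and 2780.0 to 3307 CPM against 4990 to 6622 CPM. The 10 members that rose in all 3 comparisons, Mmp2, Adamts2 and Adamtsl2 among them, moved in the direction of the mesenchymal markers. The epicardial, macrophage, neutrophil and erythroid markers had that direction too, so it does not single out 1 cell type. Mmp15 moved in the direction of the cardiomyocyte markers. The part of the cell makeup in the members' differences was not tested.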

How the data were processed

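Whole-gene read counts were deposited by the authors for both experiments: reads had been mapped with TopHat2 2.1.0 and Bowtie2 to mm10, libraries brought to a like number of mapped reads, and counts made per Ensembl gene (GRCm38.p6) with summarizeOverlaps. Its default drops reads touching more than 1 gene; the setting and the strand of the kit are not given in the sources used here. Deposited tables of the authors' fold changes and p-values were not used.

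Of 48713 rows, 4 repeated identifiers were kept once. Genes with a mean count above 1 in an experiment were tested with edgeR 4.0.16 (R 4.3.3; TMM scaling, quasi-likelihood F test, Benjamini-Hochberg adjustment over all genes tested, threshold 0.05), in 1 fit per experiment and 1 joint fit for the difference between experiments. SE is the log2 fold change divided by the root of F. The fit was tested on simulated counts, and the outcome is not reported here. Alternatives were DESeq2 1.42.0 and its size factors, no filter, a replicate block, only the 6 libraries compared, and leaving out each library. The members and lists were chosen with earlier results of these data known. Named genes were Timp1 to Timp4, Mmp2, Mmp14, Adamts1, Adamts5, Adamts9, Adamts19 and Mmp23, members past the threshold in any comparison, the 3 most abundant per family, and the 3 largest rises and falls in the pathway lists in experiment 1, of which 1 gene is not reported here. The ChIP-seq samples of the series were not analysed here.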

Additional observations from a re-analysis of the deposited data

How the results depend on the processing

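No call of a member reversed in any alternative. The number of members past the threshold was 12 to 20 in experiment 1, 12 to 17 with Sav1 wt and 10 to 15 with Sav1 KO when 1 library was left out, against 18, 18 and 14 in full. For Sav1 loss in LIN9 KO it was 0 to 2, and the 2, Mmp14 and Mmp15, appeared without LIN9 KO Sav1 wt library 3; for the other comparisons it stayed at 0. With DESeq2 the counts were 17, 14 and 12, with no filter on low counts 19, 19 and 17, and with only the 6 libraries compared 15 and 19 in experiment 2. Of the calls, 11 of 18, 11 of 18 and 9 of 14 kept their side of the threshold in every alternative. Same-numbered libraries did not deviate together throughout (correlations of 0.0267 to 0.0873 in experiment 1 and of 0.0891 to 0.393 with Sav1 wt over all genes tested). Over genes with a mean count above 50 they did so between the Sav1 wt libraries of LIN9 wt and those of LIN9 KO (0.341 to 0.72). They also did so between Sav1 wt and Sav1 KO in LIN9 wt (0.171 to 0.427). Whether the numbers pair libraries in these 2 comparisons thus depends on the genes used. In experiment 1 these genes gave 0.0588 to 0.287, and there and in the other comparisons the lowest value was under the 0.1 required. The fit with the replicate block gave 21, 18 and 14 members, 0 for both Sav1 effects, and 0 for the interaction and for the difference between experiments. Of the single calls, the block removed Adamts1 with Sav1 wt and Adamts17 with Sav1 KO, and added Adamts5 (adjusted p = 0.0323), Adamts8 (0.0146) and, as lower, Adamts9 (0.0269) in experiment 1, Mmp16 with Sav1 wt (0.0333) and Adamts19 with Sav1 KO (0.0162, edgeR). Apart from leaving out a library, the other settings that added calls were no filter (Adamts5 in experiment 1, Mmp16 with Sav1 wt, and Adamts1, Adamts7 and Adamts19 with Sav1 KO) and only the 6 libraries compared (Mmp14, Timp2, Adamts1, Adamts7 and Adamts19 with Sav1 KO). Depth limits Adamts13, Adamts16, Adamts18, Mmp17 and Mmp25, where 1 count is about 0.1 CPM in experiment 1 and about 0.3 CPM in experiment 2. The cause of the changed counts was not tested.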
